A study of Mus musculus with 4 samples.

Results

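Autosomal regions that carried a methylation peak in sperm of diabetic fathers and in islets of their offspring, and no peak in either control library, were examined. Peaks of all 4 lists that overlapped or touched were joined into union regions, and a region was kept when it held a peak of the T2D sperm list and of the T2D islet list and none of the control sperm or control islet list. This left 6768 T2D-only regions of 301535 autosomal union regions, a share of 2.24%. The regions were selected on measured values, namely whether each list had a peak there, so their presence in the T2D lists and absence from the control lists is not a finding, and the tag counts, scores and enrichments of the same peaks are given as a description.

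The assay was MeDIP-seq: an antibody against 5-methylcytosine pulls down methylated DNA fragments, which are then sequenced. All mice were of the outbred ICR strain. Founders were sibling males. T2D founders ate a high-fat diet (33% of energy as fat) to 12 weeks of age and then received a low dose of streptozotocin, a toxin of insulin-producing beta cells, on the same diet. Only males whose fasting glucose reached 7 to 11 mM over the following 4 weeks were used as T2D, so the condition is a diet and toxin model. Control founders ate a control diet. The groups were islets of offspring of T2D fathers, sperm of T2D founders, islets of offspring of control fathers and sperm of control founders. Each came from 6 animals, the islets at 3 weeks and the sperm at 16 weeks of age, and females ate standard diet. Sperm was treated with a buffer that lyses somatic cells. Whether the 6 animals were pooled is not stated, and each group had 1 library, so no difference has a replicate check and no p-value is given. Intervals below are 95% intervals that cover counting error only.

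In mammals, cytosine methylation lies mainly at CpG sites and is copied at each cell division. Most of it is removed and laid down again in the germ line. After fertilisation most is removed and laid down again in the early embryo, where imprinted control regions and some retrotransposons keep theirs. The series sets paternal T2D against control in both tissues, and regions called under opposite conditions in islets and sperm are the comparison for regions called under T2D in both.

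The T2D-only regions were about as many as the regions of opposite condition. A total of 6636 regions (2.20%) had a peak in T2D islets and control sperm alone, and 6805 (2.26%) in control islets and T2D sperm alone. The T2D-only count was 1.01 times the mean of these opposite-condition classes (interval 0.978 to 1.04). A further 6827 regions (2.26%) were control only in both tissues. The T2D-only regions made up 25.03% (24.5% to 25.6%) of the 27036 regions of these 4 classes, where equal classes would each hold 25%. The single-tissue classes that contain these regions were T2D-only calls in islets, 17.4% of union regions, and T2D-only calls in sperm, 17.8%. Control-only calls within 1 tissue made up 17.5% in islets and 17.3% in sperm.

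Within each tissue, a T2D-only call met a T2D-only call in the other tissue about as often as it met a control-only call. Of 52406 regions that were T2D only in islets, 12.9% (12.6% to 13.2%) were T2D only in sperm and 12.7% (12.4% to 13.0%) were control only in sperm. Another 28.1% had peaks in both sperm libraries and 46.4% in neither. Of 53606 regions that were T2D only in sperm, 12.6% (12.3% to 12.9%) were T2D only in islets and 12.7% (12.4% to 13.0%) control only in islets. Another 17.4% had peaks in both islet libraries and 57.3% in neither.

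The T2D-only regions covered 7.63 Mb, or 2.16% of the length of all union regions. They held 6777 peaks of the T2D islet list, 4.14% of its autosomal peaks, and 6776 peaks of the T2D sperm list, 3.83% of its autosomal peaks. A total of 6751 regions held exactly 1 peak of each list, 9 held more than 1 islet peak and 8 more than 1 sperm peak. Where a region had several peaks of a list, the peak with the most tags stands for it below.

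The peaks of T2D-only regions held fewer tags and scored lower than their lists as a whole. Their islet peaks held a median of 29 tags (interval 28 to 29), with a lowest value of 18, quartiles of 23 and 41 and a highest value of 319, against a median of 39 tags over the T2D islet list. Their sperm peaks held a median of 39 tags (39 to 40), from 21 to 385 with quartiles of 30 and 58, against 50 over the T2D sperm list. A tag is a sequenced read, and tags were not scaled to depth, which the file headers give for sperm only. The median enrichment over the caller's background was 6.78 in islets and 6.25 in sperm, against list medians of 7.25 and 6.74. Regions with peaks in all 4 lists, by comparison, held medians of 48 tags in their T2D islet peaks and 66 tags in their T2D sperm peaks, with enrichments of 7.74 and 7.35.

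The caller's score, 10 times the negative log10 of its p-value, showed how near the calls lay to its minimum of 50. In islets 2192 T2D-only regions (32.4%, interval 31.3% to 33.5%) scored under 60, against 18.8% of the T2D islet list. In sperm 1925 (28.4%, 27.4% to 29.5%) did, against 18.0% of the T2D sperm list. The islet share was 30.4% in regions T2D only in islets and control only in sperm and 32.2% in the reverse class. The sperm share was 27.6% and 28.2% in the same order. Both peaks scored under 60 in 694 regions (10.3%), a share that was 9.36% in regions T2D only in islets and control only in sperm and 9.70% in the reverse class. At the edge of the score rule, 4 islet peaks and 1 sperm peak of T2D-only regions scored exactly 50.

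Set against peaks of the same list in the opposite-condition regions, the T2D-only regions held slightly fewer tags. In the T2D islet list, the median was 29 tags (28 to 29) for T2D-only regions and 30 (30 to 30) for regions that were control only in sperm. In the T2D sperm list, it was 39 tags (39 to 40) for T2D-only regions and 41 (40 to 42) for regions that were control only in islets. The median islet score was 67.7 (67.1 to 68.3) against 69.2 (68.4 to 69.7), and the median sperm score was 70.4 (69.7 to 71.2) against 70.4 (69.8 to 71.2). These gaps are small beside the quartiles of any class, and a spread between libraries of a group was not measured.

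The share of each list's peaks that stood for T2D-only regions was lower among peaks with more tags. In the T2D islet list, it was 7.98% (7.54% to 8.43%) in the decile with the fewest tags and 1.39% (1.23% to 1.58%) in the decile with the most. Regions T2D only in islets and control only in sperm took 7.17% (6.76% to 7.61%) and 1.51% (1.33% to 1.71%) of the same deciles. In the T2D sperm list, T2D-only regions took 5.82% of the lowest decile and 2.02% (1.82% to 2.24%) of the highest. Regions control only in islets and T2D only in sperm took 5.71% and 2.78% (2.55% to 3.03%) of them. Of the deciles given, only the highest of the sperm list had intervals of these classes that did not overlap. The intervals cover counting error over regions, and a spread between libraries of a group was not measured.

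**Figure D1:**
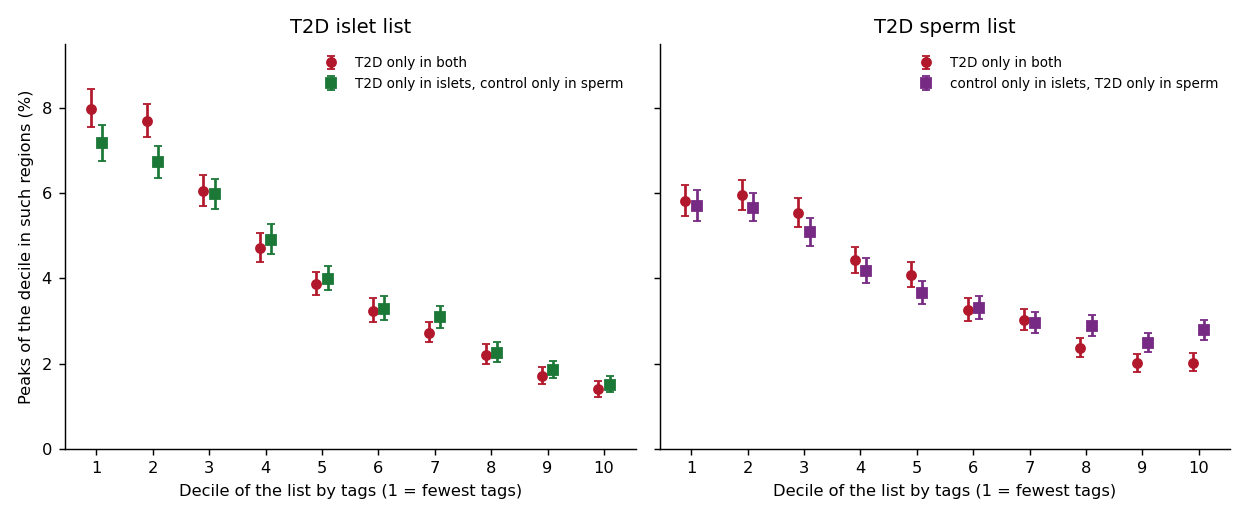
Share of peaks (%) in each decile of the T2D islet list (left) and of the T2D sperm list (right), ordered by tags, that stood for T2D-only regions (circles) or for the opposite-condition class that uses the same list (squares), with 95% Wilson intervals. In both panels the lowest decile is above the highest: T2D-only regions took 7.98% and 1.39% of these islet deciles and 5.82% and 2.02% of these sperm deciles.

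High tag counts in both tissues at once made up a small share of each class. Both peaks were in the top 10% of their lists by tags in 142 T2D-only regions (2.10%, interval 1.78% to 2.47%). The count was 166 (2.50%, 2.15% to 2.91%) in regions T2D only in islets and control only in sperm, 207 (3.04%, 2.66% to 3.48%) in the reverse class and 207 (3.03%, 2.65% to 3.47%) in control-only regions. The T2D-only interval overlapped that of the first class and not those of the last pair. These intervals count regions of 1 library per group, so they do not measure a difference between conditions. Control-only regions also take both peaks from other lists. For the top 1% the counts were 14 for T2D-only regions, 16 and 20 for the opposite-condition classes and 21 for control-only regions, with intervals that overlapped. Both scores were in the best 50% of their lists in 587 T2D-only regions (8.67%, 8.03% to 9.37%), against 634 (9.55%) and 573 (8.42%) in the opposite-condition classes and 604 (8.85%) in control-only regions.

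Tag counts in islets and sperm went together across the T2D-only regions. Spearman's rho between them was 0.60 over 6768 regions, given as a description only, since both peaks lie at the same place in the genome. The widths of the islet and sperm peaks had a rho of 0.53, and base composition was not measured. The rho for tags was 0.62 in each opposite-condition class and 0.65 in control-only regions. Scores of the same peaks hardly went together, with a rho of 0.09 in T2D-only regions. Within a tissue, tags went weakly with score, with a rho of 0.25 in islets and 0.20 in sperm. They followed the width of the peak, with a rho of 0.75 in islets and 0.78 in sperm, and ran against enrichment, with a rho of -0.30 and -0.33.

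T2D-only regions had a median width of 997 bp (986 to 1005), from 419 to 4409 bp. The median was 1006 bp (996 to 1014) and 1008 bp (995 to 1023) in the opposite-condition classes and 1015 bp (1004 to 1030) in control-only regions. Islet peaks of T2D-only regions had a median width of 795 bp (788 to 803) and sperm peaks of 900 bp (891 to 908). Peaks of the same lists in the opposite-condition classes measured 806 bp (798 to 814) in T2D islets and 913 bp (904 to 922) in T2D sperm. A width of 2000 bp or more was reached by 463 T2D-only regions (6.84%), by 479 (7.22%) and 511 (7.51%) opposite-condition regions and by 526 (7.70%) control-only regions.

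Enrichment and width ran in opposite directions. The 1302 T2D-only regions under 750 bp had a median enrichment of 7.33 in islets and 6.75 in sperm, with medians of 22 and 28 tags. The 463 regions of 2000 bp or more had enrichments of 5.34 and 4.75 with medians of 72 and 119 tags. Tags per kb of peak differed less, at 41.7 in islets and 49.6 in sperm for the narrow regions and 46.5 and 55.0 for the wide ones. The wide regions thus held many tags at a low enrichment over the caller's background. The other classes showed a like fall between these widths. In islets it was from 7.33 to 5.21 in regions T2D only in islets and control only in sperm and from 7.295 to 5.37 in the reverse class. In control-only regions it was from 7.23 to 5.48.

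**Figure D2:**
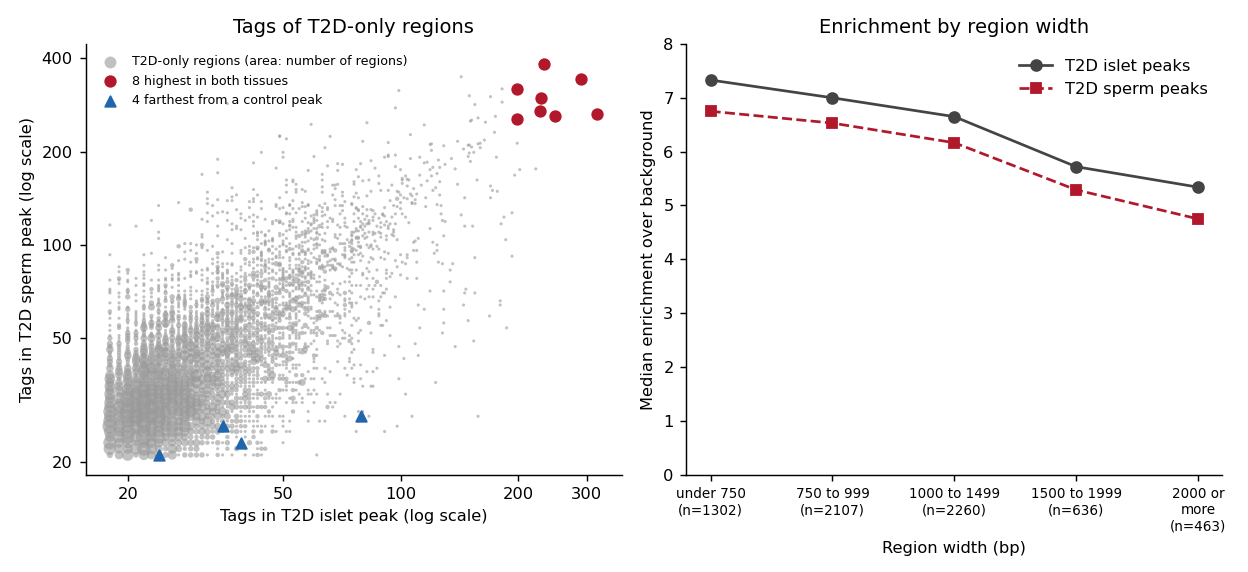
Left, tags in the T2D islet peak (x, log scale) against tags in the T2D sperm peak (y, log scale) of the 6768 T2D-only regions, with the 8 regions highest in both tissues as large circles and the 4 farthest from a control peak as triangles. Right, median enrichment of T2D islet and T2D sperm peaks by region width, which was 7.33 and 6.75 under 750 bp and 5.34 and 4.75 at 2000 bp or more.

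A T2D-only region with 1 peak of each list exists only because those peaks overlapped or touched, so that they overlap is set by the rule, and how far they did is given as a description. They shared a median of 689 bp, or 73.7% (73.1% to 74.3%) of their joint length, and overlapped by at least 50% of each peak in 6050 regions (89.4%). The summits, the positions of highest tag density, lay a median of 36 bp apart (35 to 38), within 50 bp in 4128 regions (61.0%, interval 59.8% to 62.1%) and over 500 bp apart in 463 (6.84%). In the opposite-condition classes the median summit distance was 35 bp (34 to 36) and 37 bp (36 to 38), and 62.2% and 60.8% lay within 50 bp. The T2D peaks of regions called in all 4 libraries had summits 32 bp apart (32 to 33), 64.1% of them within 50 bp. The opposite-condition classes and the regions of all 4 libraries thus had summit distances within a few bases of that of T2D-only regions.

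Control peaks lay near most T2D-only regions. The gap to the nearest peak of either control list had a median of 2834 bp (2747 to 2935), quartiles of 1524 and 5304 bp and a highest value of 174385 bp. The nearest control sperm peak was a median of 3816 bp away and the nearest control islet peak 4278 bp. A control peak lay within 1000 bp of 1020 regions (15.1%, interval 14.2% to 15.9%), within 5000 bp of 4915 (72.6%) and within 10000 bp of 6146 (90.8%). For the opposite-condition regions the gap was taken to the lists that were empty there. It had medians of 2703 bp (2645 to 2771) for regions T2D only in islets and control only in sperm and 2847 bp (2762 to 2931) for the reverse class, and 2631 bp (2551 to 2704) for control-only regions. A peak of an empty list lay within 1000 bp of 16.8% and 16.0% of opposite-condition regions and of 17.4% (16.6% to 18.4%) of control-only regions. The T2D-only gap was within the range of the opposite-condition classes at the median. Its interval did not overlap that of the control-only class, whose gap was taken to the T2D lists.

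**Figure D3:**
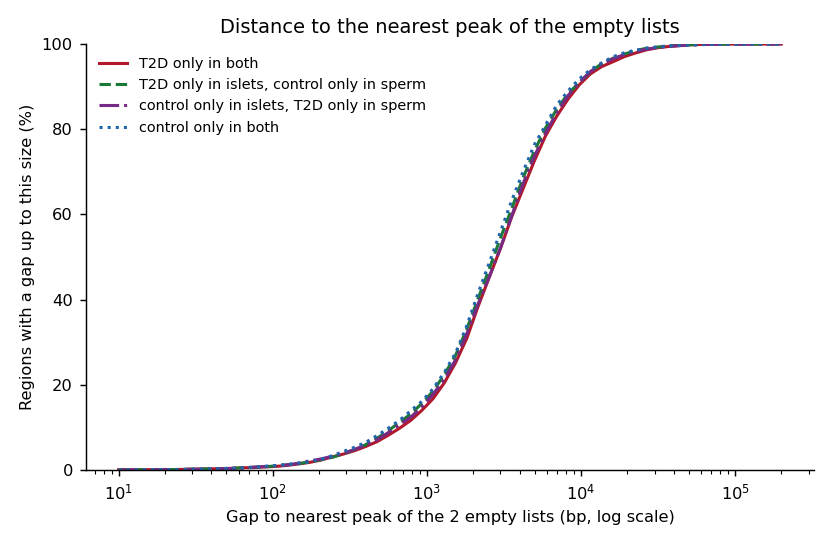
Cumulative share of regions (y, %) whose gap to the nearest peak of the lists that are empty there was at most the value on the x axis (bp, log scale), for T2D-only regions, both opposite-condition classes and control-only regions. The 4 curves ran close together, with medians of 2834 bp for T2D-only regions, 2703 and 2847 bp for the opposite-condition classes and 2631 bp for control-only regions.

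The nearest control peak lay in a union region called in all 4 libraries for 1716 T2D-only regions (25.4%, interval 24.3% to 26.4%), and the nearest peak of an empty list did so for 25.1% and 25.8% of opposite-condition regions. Its tags put it at a median percentile of 46.3 in its own list for T2D-only regions, against 50.7 and 50.3 in the opposite-condition classes and 52.0 in control-only regions.

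At the edge of the rule stood regions that a few bases kept in or out, given here and below by mm9 coordinates. Just inside, the region on chromosome 14 from 81784795 to 81785649 held 18 islet and 34 sperm tags, with a control islet peak of 39 tags 1 bp away. On chromosome 6 from 66164099 to 66165019, with 32 and 33 tags, a control sperm peak of 28 tags lay 2 bp away. On chromosome 2 from 178348650 to 178349807, with 46 and 59 tags, the gap to a control sperm peak of 59 tags was 3 bp. Just outside, the T2D peaks on chromosome 7 between 13871393 and 13873290, with 48 and 40 tags, touched a control islet peak of 34 tags without sharing a base. On chromosome 8 from 85597436 to 85599408 a control sperm peak of 33 tags shared 3 bp with T2D peaks of 28 islet and 34 sperm tags. On chromosome 9 from 122632340 to 122635807 a control sperm peak of 139 tags shared 11 bp with T2D peaks of 42 and 61 tags. The tag counts of the T2D peaks on both sides of the edge overlapped.

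The T2D-only regions with the most tags in both tissues were broad. Ranked by the lower of their 2 tag percentiles, the first 8 were 3093 to 4256 bp wide and held 199 to 319 islet tags and 255 to 385 sperm tags. Their enrichments were low, at 3.87 to 6.34 in islets and 3.32 to 6.37 in sperm. By score they stood between the percentiles of 2.88 and 57.5 of the islet list and 23.0 and 69.2 of the sperm list. Both control lists were empty in all 8 by the rule, and a control peak lay 835 to 5370 bp away.

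First in this order was the region at 116429049 to 116432675 on chromosome 5, where 290 tags in T2D islets (enrichment 4.72, score 65.1) and 343 in T2D sperm (3.49, score 71.4) were found. The nearest control islet peak, 1828 bp away, held 213 tags, and the nearest control sperm peak, 11188 bp away, held 215. On chromosome 7 from 34996434 to 34999993, 233 islet tags (3.87) and 385 sperm tags (3.32) were found, and control peaks of 50 tags in islets and 79 tags in sperm lay 5370 bp and 7184 bp away. The control peaks near the first region were in the top 2% of their lists by tags, and those near the second were not.

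The third, on chromosome 11 from 69172536 to 69175653, held 229 islet and 297 sperm tags, and a control sperm peak of 163 tags ended 835 bp before it. The fourth, on chromosome 13 from 49795395 to 49798637, held 228 and 271 tags. It was followed after 1204 bp by a control sperm peak of 119 tags and after 1556 bp by a control islet peak of 90 tags. On chromosome 8 from 123100916 to 123104008, 319 islet tags, the highest islet count of any T2D-only region, met 264 sperm tags, and the nearest control sperm peak, 4228 bp away, held 331 tags. For the regions on chromosomes 11, 13 and 8 the nearest control peak was thus a sperm peak.

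The remaining 3 lay on chromosome 4 from 148446464 to 148449740 (248 islet and 261 sperm tags), on chromosome 4 from 44049703 to 44053958 (199 and 255 tags) and on chromosome 15 from 100772104 to 100775298 (199 and 319 tags). In the region at 44049703 the peaks overlapped by 1066 bp and their summits lay 6 bp apart. The nearest control peaks of the chromosome 15 region, 164 tags in islets and 255 in sperm, lay 4585 bp and 4468 bp away. The leading regions of the other classes were also wide and of low enrichment. The first 3 of each class held 222 to 260 islet and 255 to 340 sperm tags in regions T2D only in islets and control only in sperm, 248 to 321 and 293 to 315 tags in the reverse class, and 237 to 350 and 348 to 367 tags in control-only regions. Their enrichments ran from 2.82 to 5.81 and their widths from 2690 to 3954 bp.

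High scores in both tissues were rarer than high tag counts. Only 2 T2D-only regions had both scores in the best 10% of their lists, against 4 and 2 opposite-condition regions and 2 control-only regions. Both are named because they are so few, a choice made with their values known. One, on chromosome 6 from 133752093 to 133753100, held 66 islet tags (score 295) and 54 sperm tags (score 187). Its islet and sperm summits were 4 bp apart, and the nearest control peak lay 24430 bp away. The other, on chromosome 11 from 64198696 to 64199473, held 44 islet tags (score 190.4) and 47 sperm tags (score 209), with summits 19 bp apart and a control islet peak 7361 bp away. Both were narrow beside the regions with the most tags, at 1008 and 778 bp.

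The widest T2D-only regions were joined from peaks that overlapped in part. On chromosome 4 from 33593824 to 33598232, the islet peak of 61 tags and the sperm peak of 129 tags shared 90 bp of 4409 bp, and their summits lay 3622 bp apart. On chromosome 5 from 124593357 to 124597654, peaks of 150 and 198 tags shared 60 bp of 4298 bp. The third widest is the chromosome 4 region at 44049703 described above. On chromosome 1 from 182517503 to 182521667, peaks of 151 and 251 tags shared 1160 bp of 4165 bp. In the regions at 33593824 and 124593357 the T2D-only call in islets and that in sperm concerned almost entirely different bases.

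Some regions were uneven between the tissues. On chromosome 11 from 116580495 to 116582791 the islet peak held 158 tags and the sperm peak 28, at tag percentiles of 98.6 and 12.2. On chromosome 8 from 52820294 to 52821629 the counts were 91 and 25, and the nearest control peak lay 41477 bp away. In the other direction, on chromosome 5 from 119081868 to 119084092, the islet peak held 18 tags, the smallest number in the list, and the sperm peak 116, with a control sperm peak 684 bp away. On chromosome 11 from 106233965 to 106236222 the counts were 21 and 115.

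The regions farthest from any control peak held few sperm tags. The first, on chromosome 14 from 6291042 to 6291798, had 35 islet and 26 sperm tags, with the nearest control sperm peak 174385 bp and the nearest control islet peak 1018219 bp away. The second, on chromosome 1 from 111616683 to 111617345, had 24 and 21 tags and a gap of 112734 bp. The third, on chromosome 1 from 141621174 to 141621966, had 39 and 23 tags and a gap of 85085 bp. The fourth, on chromosome 7 from 48499122 to 48500027, had 79 and 28 tags and a gap of 75416 bp. Their sperm peaks stood between percentiles of 0.53 and 12.2 by tags.

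The gap to the next T2D-only region had a median of 102025 bp, against 105828 and 98461 bp in the opposite-condition classes and 96718 bp in control-only regions. Another T2D-only region lay within 100 kb of 3345 regions (49.4%, interval 48.2% to 50.6%), where the share for regions of the same class was 47.7% and 50.5% in the opposite-condition classes and 51.0% in control-only regions. Among the union regions directly before and after a T2D-only region, 312 of 13535 (2.31%, 2.07% to 2.57%) were also T2D only in both tissues, near their share of 2.24% of all union regions. An adjacent pair of T2D-only regions enters this count from both sides, so its interval is too narrow. The neighbour was of the opposite-condition classes in 2.38% and 2.12% of cases, against their shares of 2.20% and 2.26% of all union regions. It was control only in both tissues in 382 cases (2.82%, 2.56% to 3.11%), an interval above the 2.26% that class makes up of all union regions. Beside regions T2D only in islets and control only in sperm, the reverse class likewise made up 2.83% (2.56% to 3.13%) of neighbours, against 2.26%. Beside regions control only in islets and T2D only in sperm, control-only regions made up 2.56% (2.31% to 2.84%), also above 2.26%. These pairs of classes were singled out after their values were seen. The neighbour of a T2D-only region was present in all 4 libraries in 21.9% of cases, against 21.7% of all union regions. Within 50 kb on either side, a T2D-only region had a median of 16 other union regions, as did each of the other 3 classes.

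Chained at gaps of up to 100 kb, the T2D-only regions formed 4770 groups, of which 3423 were single regions and 56 held 5 or more. Regions T2D only in islets and control only in sperm formed 4768 groups, 36 of them of 5 or more. The reverse class formed 4741 and control-only regions 4715, each with 58 of 5 or more. The largest groups of the opposite-condition classes held 9 and 10 regions and that of control-only regions 9. The largest T2D-only group held 10 regions over 324 kb on chromosome 9 from 62234902 to 62558808. Its regions held 19 to 61 islet tags with a median of 37, and 35 to 125 sperm tags with a median of 44. The densest pair in it, from 62494655 to 62495844 and from 62498217 to 62499299, lay 2372 bp apart, with 25 and 29 islet tags and 44 and 43 sperm tags. The same span also held 15 regions present in all 4 libraries and 1 region of each of the other 3 classes, among 59 union regions.

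The next groups held 7 regions each. On chromosome 6 from 6298190 to 6540101, 7 of 34 union regions were T2D only, with 18 to 38 islet and 24 to 54 sperm tags, and 5 were present in all 4 libraries. On chromosome 3 from 121216357 to 121474322, 7 of 60 union regions were T2D only, with 18 to 67 islet and 22 to 145 sperm tags. Their median islet tags were 30 and 34 and their median sperm tags 36 and 39. The 3 groups thus had medians near or above the T2D-only medians of 29 islet and 39 sperm tags, except for the sperm peaks of the chromosome 6 group, and each span also held regions of other classes.

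Chromosome 9 held the most T2D-only regions relative to the other classes. Of its 1417 regions of the 4 classes, 419 were T2D only in both tissues (29.6%, interval 27.3% to 32.0%), 318 (22.4%) were T2D only in islets and control only in sperm and 330 (23.3%) the reverse. On the other 18 autosomes the T2D-only share ran from 23.2% to 26.4%. Relative to all union regions, 2.53% (2.30% to 2.78%) of those on chromosome 9 were T2D only, against 2.03% to 2.44% elsewhere. The chromosome was singled out after its values were seen, as the highest of 19. Among peaks with a score of at least 100 its T2D-only share was 22.5% (19.5% to 25.9%), within the 20.3% to 25.1% of the other autosomes. This was below the chromosome 9 share of regions T2D only in islets and control only in sperm (26.3%). In the best 50% of each list by score its T2D-only share was 24.7% (21.9% to 27.7%), within the 21.7% to 26.9% of the other autosomes. Under both settings weaker peaks, control peaks included, were left out before the classes were formed.

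**Figure D4:**
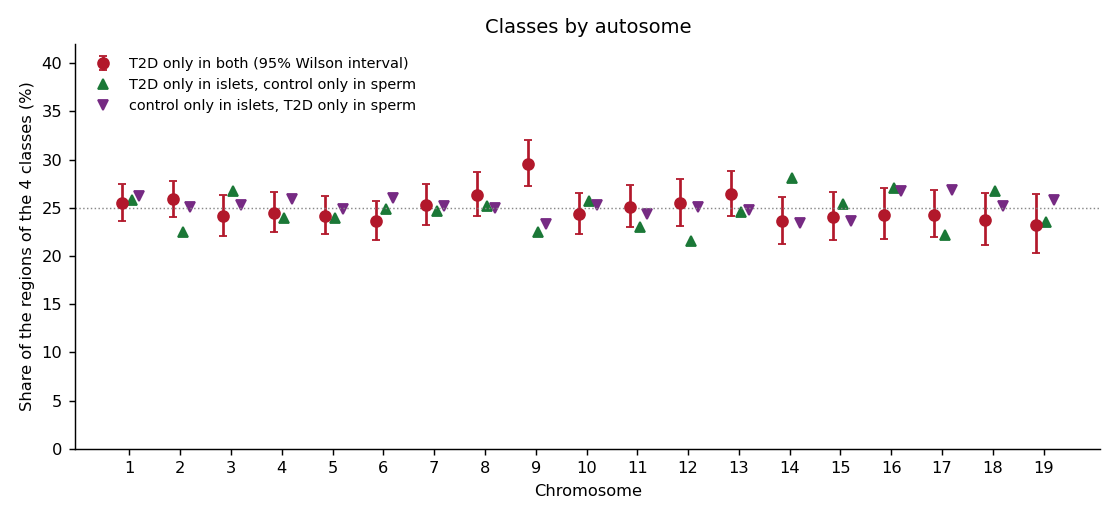
Share (y, %) of the regions of the 4 classes on each autosome (x) that were T2D only in both tissues (circles, 95% Wilson intervals) or in an opposite-condition class (triangles), with a dotted line at 25%. Chromosome 9 stood highest for T2D-only regions at 29.6%, and the other autosomes ran from 23.2% to 26.4%.

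The order of the classes changed with the settings. The T2D-only class was the largest with gaps of up to 1000 bp joined, at 6477 regions against 6124 and 6406 of opposite condition and 6327 control only. It was also the largest with no peak of an empty list within 1000 bp, at 5748 against 5520, 5715 and 5636. With islet and sperm peaks overlapping by 50% of each it was again the largest, at 6050 against 5921, 5943 and 5961. Among peaks with a score of at least 100 in every list, 2746 regions were T2D only in both tissues, 3089 and 2943 were of opposite condition and 3414 were control only, so the T2D-only class was the smallest. Under such cutoffs weaker peaks were left out before the classes were formed, so a region called T2D only can hold a weaker control peak. With an enrichment of at least 7 the counts were 3562, 3987, 4039 and 4542 in the same order. These cutoffs left fewer peaks in the T2D lists: 88789 in T2D islets against 93747 in control islets, and 78342 in T2D sperm against 81264 in control sperm, for the enrichment cutoff. When each list kept its own best 50% by enrichment, a setting chosen after seeing the data, the counts were 3937, 4006, 4002 and 4116, and the T2D-only count was 0.983 times the mean of the opposite-condition classes (0.946 to 1.02).

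**Figure D5:**
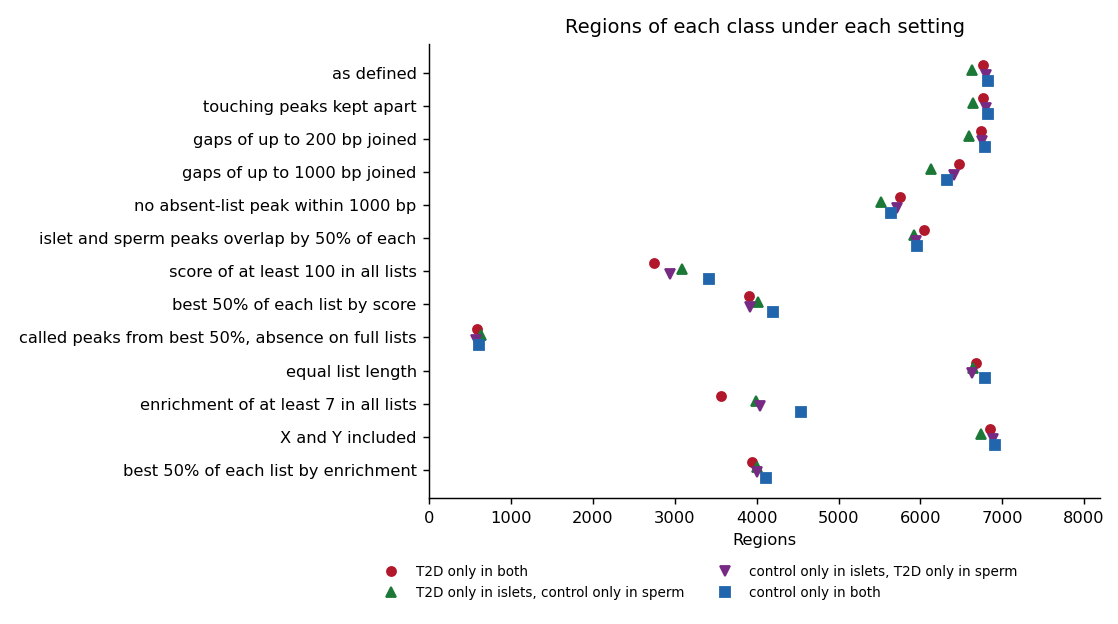
Number of regions (x) in each of the 4 classes under the definition used and under each alternative (y). The 4 counts lay close together in most settings, and with an enrichment of at least 7 they spread from 3562 for T2D-only to 4542 for control-only regions.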

How the data were processed

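MeDIP-seq peak lists of 4 libraries were used. Per the file headers, MACS made the sperm lists from 49 bp reads and no input library, with a p-value limit of 1.00e-05, a local background over 5000 bp and at most 2 reads per position. The islet lists carry no such header, and for them the caller was not stated. The submitters' processing notes name mm9 and CASAVA 1.4. The deposited tag counts are whole numbers, not scaled to depth. The deposited score is the −log10 p-value of a peak multiplied by 10, and the deposited ratio, a fold enrichment, is relative to the caller's background in that library. Both are the authors' values for each peak. Without an input library, the sperm values carry no correction for copy number or mappability. Whether the islet lists used an input library is not stated. Per the file headers, the T2D sperm library held 31833988 unique tags and the control sperm library 31053754. Islet totals are unknown.

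Peaks were joined with Python 3.11.15 and pandas 2.3.3, and the counts and median gap equalled those of bedtools 2.31.1. The steps were tested on simulated data. Alternatives changed the joining gap, the overlap, the score or enrichment minimum, the list length and the chromosomes used. Shares carry Wilson intervals, medians order-statistic intervals and count ratios exact binomial intervals. Regions named are the 8 highest by the lower tag percentile (3 in each other class), the 4 farthest from a control peak, the 3 largest groups, the 4 widest, the 2 most uneven in each direction and 3 on either side of the rule's edge. Members, lists and rules were chosen with earlier results of these data known. Coordinates are mm9 as deposited, counted from 1. No annotation or genome of this build was used, so genes and sequences at the regions are not given.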

Additional observations from a re-analysis of the deposited data

Results flagged for a closer look

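The median peak width of T2D-only regions differed from that of control-only regions in opposite directions in islets and sperm, a difference that was not tested because each group had 1 library. In islets it was 795 bp for T2D-only and 783 bp for control-only regions, a difference of 12 bp, and in sperm 900 bp and 920 bp, a difference of -20 bp. The classes take their peaks from different lists, and the whole lists differed in the same directions, with medians of 901 bp for T2D and 868 bp for control islets and of 982 bp for T2D and 991 bp for control sperm. The median score was 67.7 for T2D-only and 68.1 for control-only regions in islets (difference -0.41) and 70.40 and 70.31 in sperm (difference 0.085), also not tested. Over the whole lists it was 83.5 for T2D and 84.0 for control islets and 85.8 for T2D and 87.5 for control sperm.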

How the results depend on the processing

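No paired analysis was possible because each group had 1 library, and leaving out a replicate was not possible either. The number of T2D-only regions was 2746 with a score of at least 100 in all lists, 3562 with an enrichment of at least 7, 3907 in the best 50% of each list by score, 3937 in the best 50% by enrichment (chosen after seeing the data) and 587 when called peaks came from the best 50% by score and absence was judged on full lists. Except for the count of 587, absence was judged among the kept peaks only, so these regions can hold weaker control peaks. The ratio to the opposite-condition classes was 0.910 (0.870 to 0.953) for the score minimum and 0.888 (0.853 to 0.923) for the enrichment minimum. It was 0.973 (0.880 to 1.07) for the last of these settings and from 0.983 to 1.03 in the others. The highest of these, with gaps of up to 1000 bp joined, had an interval of 1.003 to 1.065. The intervals for the score and enrichment minimum thus lay below equal counts and that for joined gaps above them. Both minima left fewer peaks in the T2D lists than in the control lists, which the ratio does not adjust for. For the score minimum these were 57730 in T2D and 59445 in control islets, and 67205 in T2D and 69567 in control sperm.

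Median islet tags were 44 with the score minimum, 40 in the best 50% by score, 34 with absence on full lists and 30 with the enrichment minimum and in the best 50% by enrichment. Median sperm tags were 59, 54, 44 and 41 in the first 4 of these settings, 41 with lists cut to equal length, and 38 with gaps of up to 1000 bp joined, with no control peak within 1000 bp or with a 50% overlap of islet and sperm peaks. The median distance to a control peak was 6866, 5304, 3226, 5828 and 6053 bp in the 5 settings in the order given for islet tags, 3014 bp with equal length, 3400 bp with gaps joined and 3392 bp with no control peak within 1000 bp. The share with another such region within 100 kb was 26.8%, 31.8%, 3.92%, 29.6% and 31.5% in those 5 settings, 48.2% with equal length, 46.2% with gaps joined, 43.4% with no control peak within 1000 bp and 45.5% with the 50% overlap. With a neighbour distance of 10 kb and 1000 kb it was 7.20% and 99.04%. Fewer peaks remained under each minimum by construction.

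The chromosome 9 share was 21.7% to 25.8% in the 5 settings that kept stronger peaks and 29.1% to 30.8% in the others. It lay within the range of the other autosomes in each of those 5 settings and above that range in the others. One library per group limits every comparison to counting error, and islet depth is unknown.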

Other observations

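Outside the autosomes, chromosome X held 84 T2D-only regions among 5578 union regions, against 108 regions T2D only in islets and control only in sperm, 85 of the reverse class and 85 control-only regions. Chromosome Y held 1 T2D-only region among 59 union regions, and 0, 2 and 2 regions of those other classes. How many male and female offspring gave islets is not stated in the labels.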
